A study of Mus musculus with 5 samples.

Results

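The angiogenic and mitogenic growth factors of cardiac fibroblasts (CF) examined here are 9 secreted ligands: *Vegfa*, *Vegfc*, *Vegfd*, *Hgf*, *Fgf2*, *Fgf7*, *Angpt1*, *Ptn* and *Hbegf*. They were chosen by name, with earlier results of these data known, from the 20365 genes of the SLAMseq tables, and all 9 were found, on 19 distinct 3′ UTR intervals. Of these genes, 7 had several intervals and 2, *Fgf7* and *Vegfc*, had 1. For each gene 1 interval was used, selected on the mean CPM of the libraries with S4U (the highest was kept), so the transcript levels are a description, whereas the T>C conversion rate took no part in this choice.

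CF came from hearts of healthy adult male C57Bl/6J mice without genetic modification, were released by perfusion with collagenase and were grown to confluency. Labeled CF received 0.1 mM 4-thiouridine (S4U) for 12 h (3 libraries), and unlabeled CF were kept for the same 12 h without it (2 libraries). RNA of both groups was alkylated, and the labels name S4U as the only difference between them. Cells insert S4U into nascent RNA where uridine would stand, and the alkylated base is sequenced as C instead of T. The T>C conversion rate, the fraction of covered T positions with such a C, is therefore larger for a transcript of which more was synthesised within the 12 h. The study's methods give CF preparations as the replicates of SLAMseq. The labels do not tie the single libraries to preparations or animals, and the p-values measure the spread between these libraries.

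Labeled replicates 1, 2 and 3 held 1576048, 1194971 and 506045 reads on 1 interval per gene, and unlabeled replicates 1 and 2 held 1843033 and 996143. Over all intervals the conversion rate was 0.0353, 0.0358 and 0.0356 in the labeled libraries and 0.00111 and 0.000652 in the unlabeled ones. Of 7 fibroblast markers, 7 had reads in every library, with a summed level of 37457 to 41301 CPM in labeled and 30341 to 33998 CPM in unlabeled libraries. The collagens *Col1a1*, *Col1a2* and *Col3a1* made up most of this sum. *Col1a1* was higher in every labeled library (12755 to 13293 against 8784 to 9659 CPM). *Pdgfra* (516 to 525 against 722 to 841 CPM) and *Ddr2* (245 to 332 against 382 to 453 CPM) were lower in each. For the other markers the groups overlapped. The sum of 6 endothelial markers was 115 to 218 CPM in labeled and 163 to 238 CPM in unlabeled libraries, with all 6 detected in each library. For 6 macrophage and leukocyte markers these ranges were 45.0 to 85.4 CPM and 47.7 to 81.3 CPM. The 6 cardiomyocyte markers summed to 1.27 to 8.03 CPM over all libraries, with *Ryr2* at 0 in each, and the 5 mural markers to 7.53 to 15.8 CPM. The sum of 4 epicardial markers was 3.81 to 5.93 CPM in labeled and 0.543 to 1.00 CPM in unlabeled libraries, with *Krt19* and *Msln* at 0 in each. Apart from 1 read of *Upk3b* in labeled replicate 2, this was *Wt1* alone, with 6, 5 and 3 reads against 1 and 1. The study's CF isolation included magnetic removal of CD31+ (endothelial) and CD45+ (immune) cells, a step that its account of the SLAMseq cultures does not repeat. The part of the other cell types in the values of the growth factors was not tested.

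The 9 ligands act on neighbouring cells through receptor tyrosine kinases or, for pleiotrophin, mainly through a receptor phosphatase. VEGF-A directs the growth of blood vessels, VEGF-C and VEGF-D that of lymphatic vessels, and angiopoietin-1 stabilises vessels through the receptor TIE2. FGF2 and HB-EGF are broad mitogens, whereas FGF7 and HGF are made by mesenchymal cells and act mainly on epithelial cells, and HGF also on endothelium.

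Many growth factor transcripts are known for AU-rich 3′ UTRs, in which ATTTA is the core element and the nonamer TTATTTATT a longer form of it. Both were searched on the strand of the gene only, and copies that overlap were each counted, so that a nonamer also holds ATTTA. The printed stretches are the densest 30 bases of ATTTA in the intervals that gave the values of this report, read 5′ to 3′ from GRCm39, with the element in capitals. For *Vegfa*, the only member whose interval held the nonamer, the stretch around it comes first, and *Hbegf* is given by its count alone.
Vegfa, chr17:46328091-46328120, minus strand, nonamer: ttgttatcatTTATTTATTggtgctactgt
Vegfa, chr17:46328528-46328557, minus strand: gttaatATTTAatttcaactATTTAtgaga
Hgf, chr5:16824778-16824807, plus strand: tttgttgtttATTTAtATTTAttatcctag
Fgf7, chr2:125932403-125932432, plus strand: ttgttATTTAagtttatgttATTTAtaaag
Fgf2, chr3:37459159-37459188, plus strand: agaggATTTAaaaatatgtacATTTAtgaa
Vegfc, chr8:54639332-54639361, plus strand: gATTTAaaaaaagaatgactatataATTTA
Ptn, chr6:36692563-36692592, minus strand: agttaattattccATTTAtacctactgtag
Angpt1, chr15:42289852-42289881, minus strand: tttccagtatcatATTTActagctgatttc
Vegfd, chrX:163183891-163183920, plus strand: actgatgacATTTAaaggacatactaatct

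ATTTA occurred in the intervals of 9 of 9 members, against 62.5% of 20329 intervals taken 1 per gene, and the nonamer in 1 of 9, against 7.12%. Since long intervals hold more copies by length alone, each member was also set beside intervals of like length. *Fgf7* had 10 copies of ATTTA, and 1.83% of like intervals had at least as many. *Hgf* had 16 copies (2.07% of like intervals), *Vegfa* 9 (5.07%) and *Ptn* 4 (9.89%), whereas *Hbegf* had 4 copies, reached by 29.5% of like intervals. *Fgf2* had 17 copies (12.7%), *Angpt1* 8 (13.1%), *Vegfc* 2 (17.4%) and the upstream end of *Vegfd* 1 (13.5%). These counts describe the sequence and were not tested against the conversion rates.

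The first comparison asked how much of each growth factor transcript carried S4U after 12 h. All labeled libraries lay above both unlabeled ones for 9 of 9 members, as they did for 89.2% of the 19240 intervals tested. In the beta-binomial likelihood-ratio test 9 of 9 members had a higher rate with S4U at p below 0.05, against 94.6% of these intervals, so this count does not set the members apart. The rates among the members differed far more than that. Mean rates ran from 0.0515 in *Fgf2* down to 0.0318 in *Vegfd*, and *Ptn* followed at 0.00469, as can be seen in the plot of conversion rates by gene. As a reference, 2107 genes were covered on 1000 T positions or more in each of the 5 libraries, with a median rate of 0.0388 and quartiles of 0.0343 and 0.0422.

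**Figure D1:**
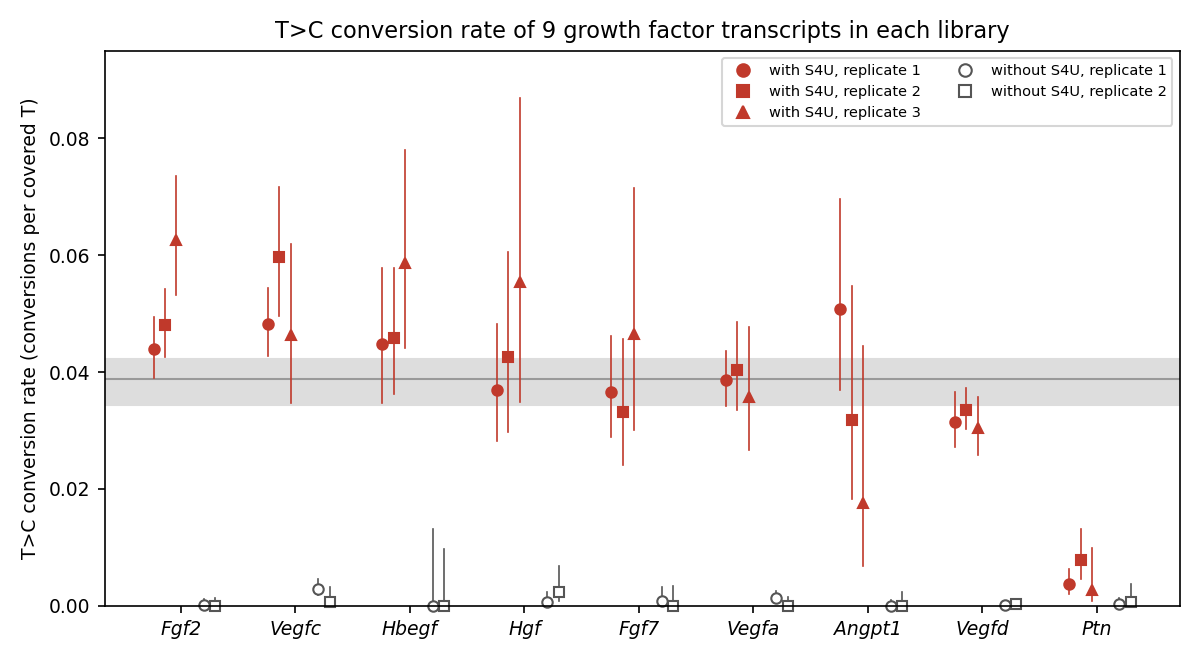
T>C conversion rate (conversions per covered T) of each growth factor in each library, with 95% Wilson intervals, filled symbols with S4U and open symbols without. The grey line and band are the median (0.0388) and quartiles (0.0343 to 0.0422) of 2107 deeply covered genes, and both *Vegfd* (0.0304 to 0.0335) and *Ptn* (0.00271 to 0.00774) lie below the band in all 3 labeled libraries.

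The VEGF genes among the members showed the whole spread from high to moderate labeling. *Vegfc* (chr8:54639104-54639489, plus strand, 3′ UTR in the last exon) carried 251 conversions on 5203 covered T positions, 105 on 1760 and 43 on 927 in labeled replicates 1, 2 and 3, with rates of 0.0482, 0.0597 and 0.0464. Its mean of 0.0514 ± 0.00719 (SD, n = 3) was above that of 2095 of the 2107 deeply covered genes. The 95% interval of labeled replicate 3 (0.0346 to 0.0619) held their median of 0.0388, and those of labeled replicates 1 and 2 started above it. Between 68.7% and 70.7% of the reads of *Vegfc* had a conversion, the narrowest range of the 9. Without S4U it had 17 conversions on 5886 T positions and 1 on 1741, and the first of these rates, 0.00289, was the highest of any member in an unlabeled library.

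*Vegfa*, the major ligand of endothelial VEGF receptors, was labeled like the typical gene. Its interval (chr17:46327919-46329783, minus strand, 3′ UTR in the last exon) gave rates of 0.0386, 0.0404 and 0.0357 on 6298, 2673 and 1231 covered T positions, a mean of 0.0382 ± 0.00235 (SD, n = 3). This mean was above that of 965 and below that of 1142 of the 2107 genes. Conversions were found in 160 of its 291 reads, 71 of 121 and 26 of 52, in 9 of 291 reads of unlabeled replicate 1 and in 0 of 106 reads of unlabeled replicate 2, where 0 of 2561 T positions allows a rate of up to 0.00117. *Vegfd* had the lowest rates of the VEGF genes among the members, 0.0315, 0.0335 and 0.0304 on 5339, 10116 and 4545 T positions (0.0318 ± 0.00160, SD, n = 3). Its mean was above that of 413 and below that of 1694 of the 2107 genes. The unlabeled libraries gave 2 and 4 conversions on 10062 and 15178 T positions of *Vegfd*.

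In every labeled library *Vegfc* lay above *Vegfa*, and *Vegfa* above *Vegfd*. The beta-binomial test of rates with against without S4U gave p = 1.34e-05 for *Vegfc*, 5.02e-06 for *Vegfa* and 7.77e-08 for *Vegfd*.

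*Fgf2* had the highest mean rate of the 9, together with *Vegfc*, above which it lay in 1 of 3 labeled libraries. With conversions and T positions summed over the libraries, *Vegfc* was higher (0.0506 against 0.0485), as it was without labeled replicate 3 (0.0540 against 0.0460). The interval of *Fgf2* (chr3:37458947-37464255, plus strand, 3′ UTR in the last exon) carried 265, 245 and 136 conversions on 6032, 5102 and 2174 T positions, which are rates of 0.0439, 0.0480 and 0.0626 (0.0515 ± 0.00979, SD, n = 3). The intervals of labeled replicates 1 and 3 (0.0390 to 0.0494 and 0.0531 to 0.0735) did not overlap. Those of the share of converted reads (49.6% to 61.5% and 64.4% to 82.8%) did not either, so the spread was larger than counting error. A single conversion was seen on 5265 T positions of unlabeled replicate 1 and 0 on 3111 of unlabeled replicate 2, which allows a rate of up to 0.000964. The *Fgf2* interval lies opposite *Nudt6*, the antisense gene of this locus, and inside the lncRNA gene *Gm43439* on its own strand. Whether the counting used strand is not given in the sources used here, so the reads of *Fgf2* are uncertain in this respect. The intervals named *Nudt6* had 0 to 12 reads per library, against 83 to 266 for *Fgf2*.

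*Fgf7*, also called keratinocyte growth factor, was close to the median gene. Rates were 0.0365, 0.0332 and 0.0466 on 1834, 1084 and 408 T positions (chr2:125931482-125933105, plus strand, 3′ UTR in the last exon), with a mean of 0.0388 ± 0.00695 (SD, n = 3). With 15 reads in labeled replicate 3, its interval there ran from 0.0300 to 0.0716 and covered the other 2 rates. *Fam227b* lies on the other strand over this interval.

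*Hgf*, the ligand of MET, was thinly covered, and its labeled rates differed in their place against the typical gene. On 1381, 681 and 307 T positions (chr5:16823992-16827448, plus strand, 3′ UTR in the last exon) rates of 0.0369, 0.0426 and 0.0554 were found (0.0450 ± 0.00945, SD, n = 3). Converted reads were 32 of 56, 20 of 28 and 9 of 13. The mean was above that of 1881 of the 2107 genes, but the rate of labeled replicate 1 was below their median of 0.0388, and the 95% intervals of all 3 labeled libraries (0.0282 to 0.0482, 0.0298 to 0.0605 and 0.0349 to 0.0869) held it.

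*Hbegf*, an EGF receptor ligand that is shed from a membrane precursor, was among the most labeled members. Rates of 0.0449, 0.0458 and 0.0587 on 1248, 1463 and 749 T positions (chr18:36637980-36639417, minus strand, 3′ UTR in the last exon) gave a mean of 0.0498 ± 0.00776 (SD, n = 3). This was above the mean of 2077 of the 2107 genes, but the 95% intervals of labeled replicates 1 (0.0347 to 0.0578) and 2 (0.0362 to 0.0577) held their median, and without labeled replicate 3 the mean was 0.0453. No conversion was seen in the unlabeled libraries, but at 290 and 393 covered T positions a count of 0 allows rates of up to 0.0103 and 0.00763, the loosest limits of the 9.

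*Angpt1* had the fewest reads of the 9 in the labeled libraries, and its rates had the largest SD. On 708, 377 and 227 T positions (chr15:42288063-42290365, minus strand, 3′ UTR in the last exon) its rates were 0.0508, 0.0318 and 0.0176, with Wilson intervals of 0.0370 to 0.0696, 0.0183 to 0.0548 and 0.00687 to 0.0444. The last of these rests on 4 conversions among 8 reads. The 3 intervals share the range from 0.0370 to 0.0444, and the mean of 0.0334 ± 0.0167 (SD, n = 3) does not place the gene above or below the median gene. Without S4U 0 conversions were found on 3734 and 1637 T positions, which allows rates of up to 0.000803 and 0.00183.

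*Ptn*, which encodes the heparin-binding cytokine pleiotrophin, differed from the other 8 members. It carried 12 conversions on 3306 T positions, 13 on 1680 and 2 on 739 (chr6:36691859-36692641, minus strand, 3′ UTR in the last exon), and its rates were 0.00363, 0.00774 and 0.00271. Conversions were present in 8 of 150 reads, 9 of 70 and 2 of 28, or 5.33%, 12.9% and 7.14%, whereas the other members had 34.5% to 74.7% converted reads in the labeled libraries. The unlabeled libraries gave 2 conversions on 5400 T positions and 1 on 1555, rates of 0.000370 and 0.000643. All labeled rates of *Ptn* were thus above both unlabeled ones (p = 0.00383, beta-binomial likelihood-ratio test), though the 95% intervals of labeled replicates 1 (0.00208 to 0.00633) and 3 (0.000742 to 0.00981) overlapped that of unlabeled replicate 2, which ran up to 0.00363, and that of replicate 3 also overlapped that of unlabeled replicate 1, which ran up to 0.00135. The interval of labeled replicate 2 started at 0.00453 and lay above those of both unlabeled libraries. For the share of converted reads, its interval (6.91% to 22.7%) overlapped that of unlabeled replicate 2 (0.281% to 8.46%). It lay above that of unlabeled replicate 1, which ran up to 3.01%. The mean rate of *Ptn*, 0.00469 ± 0.00268 (SD, n = 3), was above that of 1 of the 2107 deeply covered genes. The mean rates of the other members were 6.77 to 11.0 times higher. The T content of its interval was 38.8%, and a *Ptn* read covered 22.0 to 26.4 T positions in the labeled libraries. Labeled replicate 3 rests on 28 reads.

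Ordered by mean rate, the members were *Fgf2*, *Vegfc*, *Hbegf*, *Hgf*, *Fgf7*, *Vegfa*, *Angpt1*, *Vegfd* and *Ptn*. Of the 8 steps between neighbours in this order, the difference exceeded the SD of both genes only between *Vegfd* and *Ptn*, where it was 0.0271 and held in 3 of 3 libraries. No other step exceeded both SDs, although *Hbegf* was above *Hgf* and *Hgf* above *Fgf7* in 3 of 3 labeled libraries. The beta-binomial p was 1.38e-05 for *Fgf2*, 1.1e-05 for *Hbegf*, 2.86e-05 for *Hgf*, 1.17e-05 for *Fgf7* and 0.000236 for *Angpt1*. Coverage limits 6 of the 9 genes, which had fewer than 1000 covered T positions in at least 1 library, while *Vegfa*, *Fgf2* and *Vegfd* had more in each.

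Transcript levels were computed as CPM relative to the reads counted on 1 interval per gene. The 3′ end libraries give about 1 tag per transcript whatever its length, so levels of different genes were set side by side without division by length. Over the 11420 genes with a read in every labeled library the median level was 30.7 CPM. Ordered by the mean level with S4U, *Vegfd* came first at 413 ± 152 CPM (SD, n = 3), then *Fgf2* (166 ± 2.41), *Vegfa* (129.6 ± 47.7), *Vegfc* (96.5 ± 42.0), *Ptn* (69.7 ± 22.1), *Hbegf* (68.3 ± 17.8), *Fgf7* (37.7 ± 9.10), *Hgf* (28.2 ± 6.43) and *Angpt1* (15.3 ± 3.37). The first and the last differ 27.0-fold. With reads summed over all intervals of a gene, *Vegfa* came before *Fgf2* and *Ptn* before *Vegfc*. The second interval of *Vegfa* and that of *Ptn* lie inside the chosen ones and hold the same reads. The sum counts these reads again, so it does not show another order of levels. Neighbours differed by more than both SDs at 4 steps, from *Vegfd* to *Fgf2*, *Hbegf* to *Fgf7*, *Fgf7* to *Hgf* and *Hgf* to *Angpt1*, each in 3 of 3 labeled libraries. Among *Fgf2*, *Vegfa*, *Vegfc*, *Ptn* and *Hbegf*, no step exceeded both SDs, although *Vegfa* was above *Vegfc* and *Vegfc* above *Ptn* in 3 of 3 labeled libraries. In both unlabeled libraries *Angpt1* was above *Hgf*, *Hgf* was above *Fgf7*, and *Hbegf* was the lowest of the 9, as the plot of levels by gene shows.

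**Figure D2:**
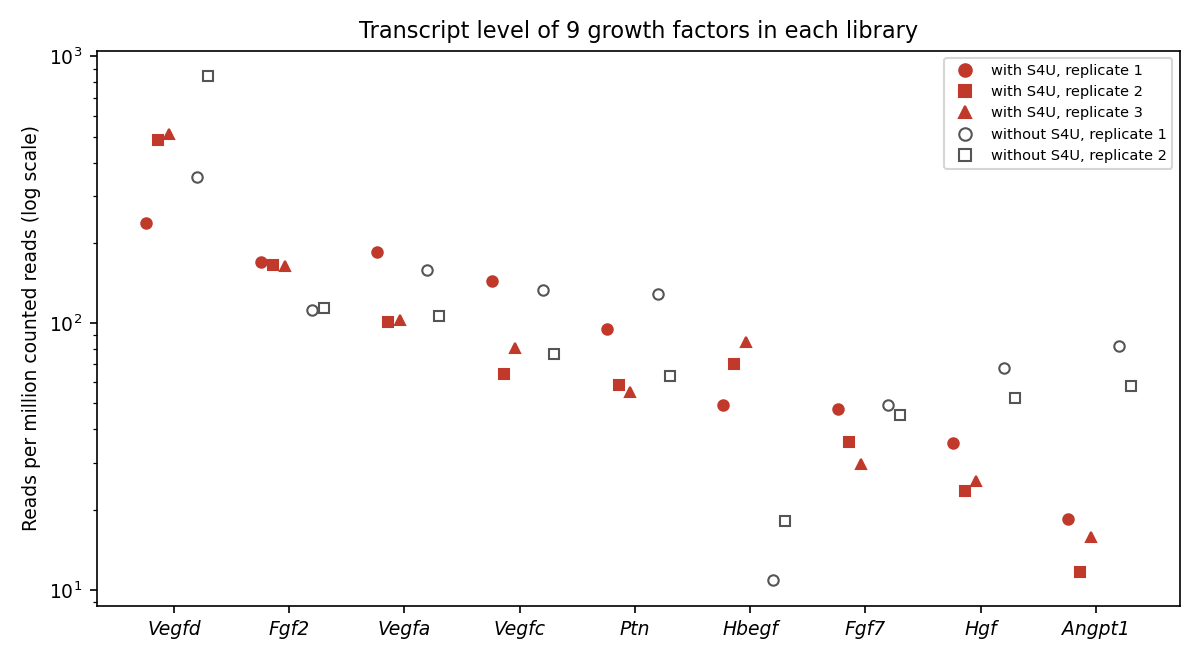
Level of each growth factor in each library, in CPM relative to the counted reads on a log scale, filled symbols with S4U and open symbols without. *Hbegf* and *Fgf2* lie higher and *Angpt1* and *Hgf* lower in all 3 labeled libraries than in both unlabeled ones, while the groups of *Vegfa*, *Vegfc*, *Vegfd*, *Fgf7* and *Ptn* overlap.

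The second comparison asked whether read counts differed between CF with and without S4U. The edgeR quasi-likelihood test with Benjamini-Hochberg adjustment over 9807 genes called 0% higher and 0% lower, and none of the 9 members. At an unadjusted p below 0.05, edgeR had 279 genes higher (2.84%) and 306 lower (3.12%), among them *Hbegf* and *Fgf2* higher and *Angpt1* and *Hgf* lower. All labeled libraries lay above both unlabeled ones for 2 of the 9 members, against 8.2% of all genes, and below both for 2, against 13.1%. DESeq2 at an adjusted p below 0.05 called 13 genes higher (0.133%) and 7 lower (0.0714%), and *Hbegf* and *Angpt1* were among them. With a block on the replicate number, edgeR called *Hbegf* and *Fgf2* higher and *Angpt1*, *Hgf* and *Vegfd* lower. It then called 5.38% of all genes higher and 6.3% lower. The labels pair no libraries by this number, and labeled replicate 3, without an unlabeled library of its number, does not enter the blocked differences. A single value cannot pass an exact permutation test here, since 3 libraries against 2 allow no p below 0.1.

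*Hbegf* had the largest positive read difference of the members. Its reads were 78, 84 and 43 with S4U and 20 and 18 without, or 49.5, 70.3 and 85.0 CPM against 10.9 and 18.1. The mean level was 4.72 times higher with S4U, and the groups did not overlap. edgeR gave a log2 fold change of 2.33 ± 0.44 (SE; adjusted p = 0.531, with 0.173 to 0.9999 over the other edgeR settings without a blocking term), and 99.8% of the genes tested had a lower one. DESeq2 gave an adjusted p of 0.00800, which ran from 0.00812 to 0.9998 when each library was left out in turn and stayed below 0.05 without labeled replicate 1 only. The DESeq2 log2 fold change was 2.33 with all libraries and 1.93 to 2.75 in these fits.

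*Angpt1* had the largest negative read difference. It had 29, 14 and 8 reads with S4U against 151 and 58 without, or 18.4, 11.7 and 15.8 CPM against 81.9 and 58.2. The unlabeled mean was 4.58 times the labeled one, with no overlap. The log2 fold change was -2.11 ± 0.34 (SE, edgeR, adjusted p = 0.433, with 0.164 to 0.9999 over the same settings). By p it ranked 6 of 9807. The adjusted p of DESeq2 was 0.0129, and it rose to between 0.0716 and 1 with any library left out, so that this call rests on all 5. Its log2 fold change was -2.13 with all libraries and -1.91 to -2.32 in these fits.

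*Hgf* and *Fgf2* had smaller differences, in opposite directions. *Hgf* had 35.5, 23.4 and 25.7 CPM against 67.8 and 52.2 (log2 fold change -0.999 ± 0.31, SE, edgeR, adjusted p = 0.725). The groups did not overlap, and the unlabeled mean was 2.13 times the labeled one. *Fgf2* was uniform, with 168.8, 165.7 and 164.0 CPM against 111.8 and 114.4 (log2 fold change 0.63 ± 0.23, SE, edgeR, adjusted p = 0.767), and its labeled mean was 1.47 times the unlabeled one.

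For the other 5 members the difference in the plotted edgeR fit, which has no block, was no larger than its standard error (see the plot of read differences). In other edgeR settings some were larger. With reads summed over intervals, overlapping ones counted again, edgeR gave *Vegfd* -0.61 ± 0.30 (SE, adjusted p = 0.932). *Vegfa* had 184.6, 101.3 and 102.8 CPM with S4U and 157.9 and 106.4 without (log2 fold change 0.05 ± 0.34). *Vegfc* had 144.0, 64.4 and 81.0 CPM against 133.5 and 76.3 (-0.03 ± 0.41). In both genes replicate 1 was the highest of its group. *Ptn*, with 95.2, 58.6 and 55.3 CPM against 129.1 and 63.2 (-0.37 ± 0.38), had the same pattern, as did *Fgf7*, with 47.6, 36.0 and 29.6 CPM against 49.4 and 45.2 (-0.23 ± 0.31). *Vegfd* went the other way within its groups, with 237.3, 487.0 and 513.8 CPM against 353.8 and 844.3 (-0.47 ± 0.49). The median log2 fold change of the 9 members was -0.23, and that of all genes tested was 0.02. Fewer cells of a kind and less RNA per cell cannot be told apart in these bulk libraries.

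**Figure D3:**
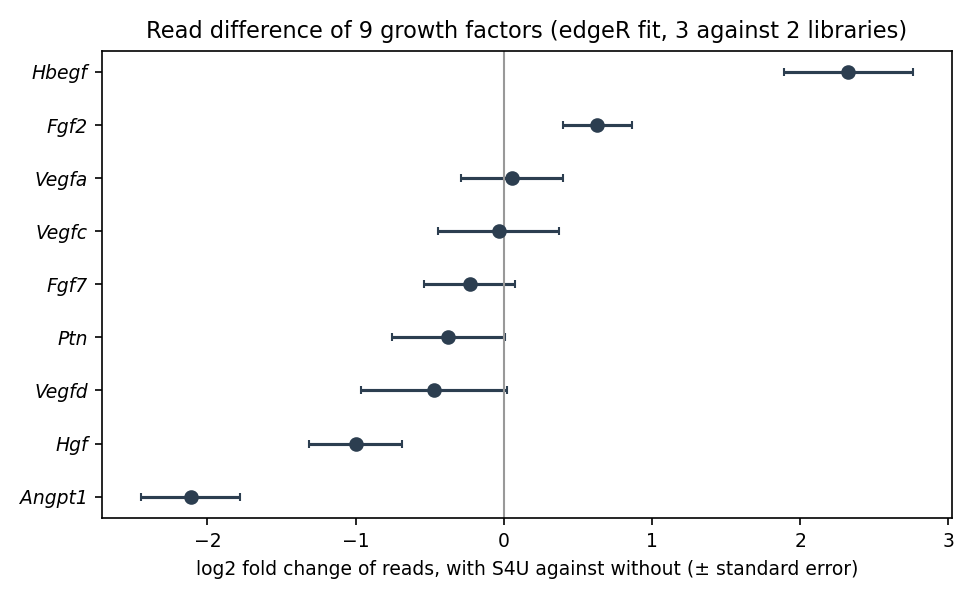
Log2 fold change of reads with S4U against without for each growth factor, from the edgeR fit over 9807 genes (3 against 2 libraries), with bars of 1 standard error. *Hbegf* (2.33) and *Angpt1* (-2.11) lie farthest from 0.

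*Vegfd* was counted on the ends of alternative last exons. The interval with the most reads covers 99 bases (chrX:163183883-163183981, plus strand) and is the 3′ UTR in the last exon of the transcript Vegfd-205, inside which several other transcripts end. The second lies downstream, in the last exon of Vegfd-201 and Vegfd-203 (chrX:163185127-163185646, plus strand, 520 bases). Within the final 50 bases of the upstream interval neither AATAAA nor ATTAAA, the usual polyadenylation signals, was found, whereas the downstream interval holds AATAAA there, as do 63% of the intervals taken 1 per gene. The downstream stretch is shown because it marks the end of the longer transcript, with the signal in capitals.
Vegfd, chrX:163185607-163185636, plus strand: gtatttaaaggaAATAAAcactgttatgca

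The upstream end took 44.3% of the reads of both in labeled replicate 1 (95% Wilson interval 41.0% to 47.7%), 60.8% in replicate 2 (57.6% to 63.8%) and 65.5% in replicate 3 (60.7% to 70.0%). It took 43.9% (41.4% to 46.5%) and 60.4% (57.8% to 63.0%) in unlabeled replicates 1 and 2. The choice of end therefore differed between the libraries of a group by more than counting error, and the groups overlapped, as shown in the plot of the upstream share. Reads on the upstream end were 374, 582 and 260 with S4U and 652 and 841 without, and on the downstream end 470, 376 and 137 against 832 and 551. On the downstream end the mean level was 294.5 CPM with S4U and 502 CPM without, and the labeled libraries all lay below both unlabeled ones. The T>C rates of the ends were close. The upstream end had 0.0318 ± 0.00160 and the downstream end 0.0292 ± 0.00360 (SD, n = 3), and in each labeled library the downstream rate, though lower, lay inside the 95% interval of the upstream one.

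**Figure D4:**
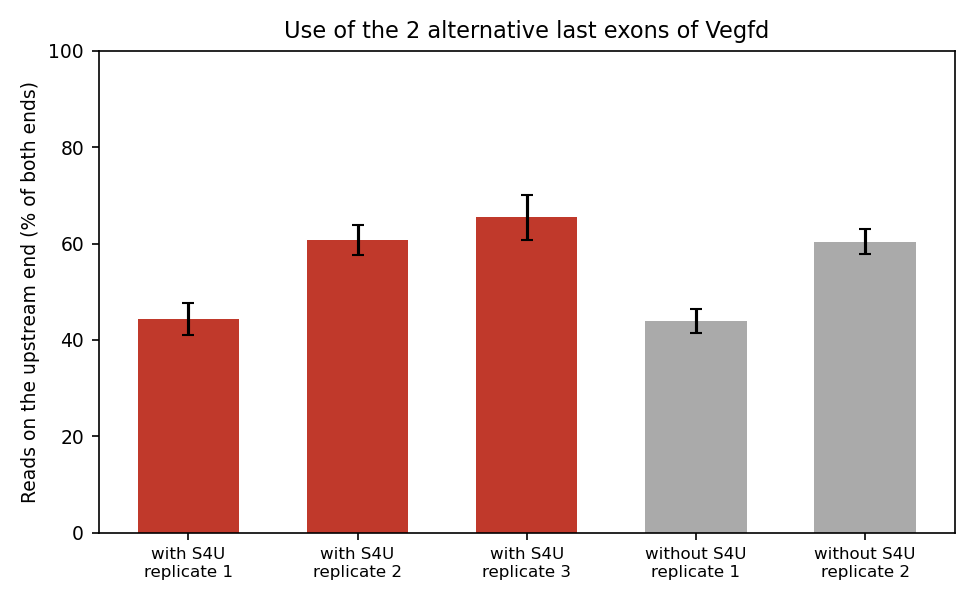
Share of *Vegfd* reads on the upstream one of its 2 ends in each library, in % of the reads on both ends, with 95% Wilson intervals, red with S4U and grey without. Both replicates 1 lie near 44% and the other 3 libraries between 60.4% and 65.5%.

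Ligands of the same families were taken as a list of 22 genes, of which 14 had a read in every library and *Areg* and *Fgf16* had none in any. With 10 of them tested by edgeR, 0 passed the adjusted threshold, and their median log2 fold change was -0.16, beside 0.02 over all genes. At an unadjusted p below 0.05, 1 was higher with S4U and 3 were lower, against 2.84% and 3.12% of all genes. The higher one was the EGF receptor ligand *Ereg* (log2 fold change 1.11, adjusted p = 0.779). The lower ones were *Vegfb* (-1.23, adjusted p = 0.589), *Angpt2* (-1.20, adjusted p = 0.725) and *Pdgfd* (-0.97, adjusted p = 0.728). The latter 3 were named after their values were seen. The highest levels with S4U were those of *Pdgfa* (97.5 ± 59.2 CPM), *Ereg* (85.5 ± 41.9 CPM), *Fgf18* (41.4 ± 3.70 CPM) and *Mdk* (37.2 ± 18.5 CPM), each SD over 3 libraries. *Mdk* encodes midkine, the closest relative of pleiotrophin. Its T>C rate was 0.00661 ± 0.00225 (SD, n = 3) from 244 or more covered T positions in each library with S4U, and the rate of *Ptn* was 0.00469 ± 0.00268. The rates of *Pdgfa*, *Ereg* and *Fgf18* were 0.0438 ± 0.00311, 0.0508 ± 0.00430 and 0.0415 ± 0.00296. The pair of the pleiotrophin family thus had the lowest rates among the 9 members and these 4 ligands.

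Receptors for the 9 ligands and their relatives were a list of 19 genes, 13 of them with a read in every library and *Alk*, *Erbb3* and *Erbb4* with none. Their summed level was 1087 to 1138 CPM with S4U and 1408 to 1427 CPM without. Of 10 tested by edgeR (median log2 fold change -0.25), 0 passed the adjusted threshold. At an unadjusted p below 0.05, 1 was lower, *Egfr* (log2 fold change -0.68, adjusted p = 0.792), against 3.12% of all genes. *Egfr*, the main receptor of HB-EGF, had 89.1 ± 14.2 CPM (SD, n = 3) with S4U, and *Nrp1*, a co-receptor of VEGF-A, had 438 ± 75.7 CPM, the highest of the list. *Fgfr1*, a receptor of FGF2, followed at 323 ± 27.5 CPM, and *Fgfrl1*, a relative without the kinase domain, had 82.8 ± 12.6 CPM. *Met*, the receptor of HGF, had 4.97 ± 2.31 CPM, and *Ptprz1*, a receptor of pleiotrophin, had 1 read in 1 of the 5 libraries. Of 6 genes that process these ligands or inhibit this processing, only *Adam17*, which sheds HB-EGF, had reads in every library. Its level was 228 ± 44.1 CPM with S4U (log2 fold change -0.61, adjusted p = 0.811), whereas *Hpn* and *Spint1* had no read. *Met* and *Ptprz1* were named as receptors of members.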

How the data were processed

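SLAMseq libraries of CF were compared, 3 labeled and 2 unlabeled, grouped by the labels. RNA was made into 3′ end libraries with unique molecular identifiers. Duplicates were removed by the authors through these identifiers (UMI-tools), and reads were aligned to mm39 with SLAM-DUNK 0.4.3, per the file headers and the study's methods. The authors deposited raw counts of reads, converted reads, covered T positions and T>C conversions per 3′ UTR interval. Rates were deposited as a fraction of the covered T positions. The deposited CPM divides reads by a number per library that exceeds the counted reads by a different factor in each library, so levels were recomputed relative to the counted reads.

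Repeated rows were used once, and ties between intervals went to the longer one. Length and T content of 40380 of 40380 intervals matched GRCm39, and coordinates are counted from 1. Gene structure was read from the annotation of that build. Members, gene lists, named genes and tests were chosen with earlier results of these data known. Named genes were every member, up to 4 genes of each list by level and genes without a read in any library. Some receptors of members and, after their values were seen, some other genes of the lists were named too.

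For T>C rates, a beta-binomial likelihood-ratio test was run where each library covered at least 1 T. It was two-sided, with 1 overdispersion fitted per interval and shared by both groups. For reads, the quasi-likelihood test of edgeR 4.0.16 was used after TMM scaling and filterByExpr, with Benjamini-Hochberg adjustment. The alternatives used DESeq2 1.42.0 and limma 3.58.1 in R 4.3.3. Python 3.11.15 ran the other steps, with pandas 2.3.3, numpy 2.4.6, numba 0.67.0, matplotlib 3.10.9 and scipy 1.17.1. On simulated data, the beta-binomial test called 96.5% of 200 changed intervals among 3000 and 6.86% of the unchanged ones, at p below 0.05. For reads, edgeR and DESeq2 each recovered 119 of 200 genes with a log2 fold change of 2 among 9533, with 2 false calls each, and edgeR with the replicate block 83 with 0 false calls. The simulated counts had the same dispersion in every gene and no deviations shared between libraries. These numbers therefore need not hold for the real libraries.

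Depth sets the precision. Within each group the libraries differed beyond sampling noise (chi-square per degree of freedom 2.04 to 16.6), so none was counted as a copy. Intervals are 95% Wilson intervals, and the limit beside a count of 0 is 3 conversions over the T positions covered. Both cover counting error only, and for rates both treat the T positions of 1 read as independent. Like length means within 1.25 times the length of the interval. Alternatives were other thresholds and adjustment, 1 interval per gene, limma on log odds (0.5 added to each count), DESeq2, RLE size factors, no filter on low counts, summed intervals, the deposited CPM, the replicate block and each library left out. For read differences, the interval chosen on unlabeled libraries and DESeq2 with libraries left out were added, as was limma with the block for T>C rates, after the data were seen.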

Additional observations from a re-analysis of the deposited data

How the results depend on the processing

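The T>C tests of the 9 members kept their call under each alternative in which they were tested, which for the minimum of 1000 covered T were *Vegfa*, *Fgf2* and *Vegfd* only. Their mean rates moved by less than 1 SD, which the mean of 3 libraries does by construction when 1 is left out, and *Angpt1* still ran from 0.0247 to 0.0413. The interval chosen on the unlabeled libraries was identical for all 9. Over all intervals, 18199 had a higher rate with S4U and 0 a lower one. The higher count was 3154 under a minimum of 1000 covered T and 10640 when each gene had 1 interval, where fewer were tested, and 17056 to 18632 with a library left out. The lower count was 1 with limma on the log odds and 2 with limma and the replicate block.

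Read calls depended on the test, and the cause was not tested. edgeR called 0 genes higher and 0 lower, and DESeq2 13 and 7. DESeq2 with each library left out called 0 to 11 higher and 0 to 6 lower. It called 11 and 6 without labeled replicate 1, 3 and 0 without labeled replicate 2 or 3, 0 and 0 without unlabeled replicate 1, and 4 and 0 without unlabeled replicate 2. The replicate numbers pair no libraries by the labels. Deviations from the group means correlated at 0.79 for replicates 1 and 0.64 for replicates 2, but also at 0.48 for labeled replicate 3 with unlabeled replicate 2, which share no number. Since 2 unlabeled libraries deviate as mirror images, these correlations do not show a pairing by number. With the replicate block, edgeR called 528 genes higher (5.38%) and 618 lower (6.3%), among them *Hbegf* (2.12, adjusted p = 2.76e-12), *Fgf2* (0.62, 0.00437), *Angpt1* (-2.14, 1.45e-13), *Hgf* (-0.96, 0.00138) and *Vegfd* (-0.64, 0.000757). Labeled replicate 3 has no unlabeled library of its number and does not enter these differences. The small p-values thus rest on replicates 1 and 2 alone.

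Directions changed for 4 members that neither edgeR without the block nor DESeq2 called. With a library left out, the edgeR log2 fold change ran from -0.28 to 0.31 for *Vegfa*, from -0.447 to 0.37 for *Vegfc* (0.039 with the replicate block), from -1.0 to 0.35 for *Vegfd* and from -0.76 to 0.18 for *Ptn*. *Vegfa* turned negative without labeled replicate 1 (-0.28 with edgeR and with DESeq2) or unlabeled replicate 2 (-0.165 and -0.178). *Vegfc* turned positive without labeled replicate 2 (0.20 and 0.19), labeled replicate 3 (0.051 and 0.0402) or unlabeled replicate 1 (0.37 and 0.36), *Vegfd* without unlabeled replicate 2 (0.35 and 0.34) and *Ptn* without unlabeled replicate 1 (0.18 and 0.17). On the deposited CPM scale the levels kept their order (*Vegfd* 30.1, *Fgf2* 14.0, *Vegfa* 12.2, *Vegfc* 9.09, *Ptn* 6.48, *Hbegf* 5.14, *Fgf7* 3.45, *Hgf* 2.52 and *Angpt1* 1.32 CPM). With reads summed over intervals, which counts overlapping ones again, the order changed to *Vegfd* (688 CPM), *Vegfa* (177), *Fgf2* (119), *Ptn* (95.3), *Vegfc* (65.9), *Hbegf* (47.4), *Fgf7* (25.8), *Hgf* (24.4) and *Angpt1* (20.8).

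Depth limits the labeled rates of *Angpt1*, *Hgf* and *Fgf7*, with 8, 13 and 15 reads in labeled replicate 3, where 1 read is worth 1.98 CPM. It limits the unlabeled rates of *Hbegf*, with 290 and 393 covered T positions.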
